A study of Homo sapiens with 16 samples.

Results

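The genes described here are 41 type I interferon-stimulated genes. They were listed by name, with no cutoff on a measured value, but with earlier results of these data known. They were taken from a deposited table of 40663 gene symbols by an exact match of the symbol, and all 41 were found. They encode the IFIT RNA-binding proteins, the OAS synthetases, RNA sensors, the MX GTPases, the ISG15 system, membrane restriction factors, nucleotide and RNA enzymes, the transcription factors STAT2, IRF7 and IRF9, and further effectors.

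Type I interferons are secreted proteins that cells make when they sense viral nucleic acid. They bind the receptor IFNAR, whose kinases include TYK2. Signalling leads to the complex ISGF3, which holds STAT2 and IRF9 and binds a short promoter motif, the interferon-stimulated response element, and switches on antiviral genes together. In fibroblasts a low level of this program runs without infection.

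RNA-seq was measured in 16 libraries of Ccd18-Co, a fibroblast line grown from human colon, in 4 groups of 4. Cells of the unstimulated group (replicates 1 to 4) received the vehicle DMSO and no cytokines. Cells of the other groups received 3 pulses of a cytokine mix, made by the labels of IL-1B (0.1 ng/ml) with TNF, IL-17A and OSM (each at 10 ng/ml). Each pulse lasted 72 h and was followed by 96 h without cytokines. The cells then rested for 1 week and were kept for 5 days in DMSO (replicates 13 to 16, here called the cytokine mix group), belinostat at 250 nM (replicates 17 to 20) or GSK-J4 at 10 µM (replicates 21 to 24). These doses are those of the labels. For belinostat the paper gives a higher dose. For IL-1B its methods give a lower dose, while its figure legend for the compound experiment gives the dose of the labels. The paper also gives a lower GSK-J4 dose for its assay of the secreted protein CXCL5, and fewer RNA-seq replicates per group. Belinostat inhibits histone deacetylases, and GSK-J4 inhibits demethylases of lysine 27 on histone H3. RNA was taken 2 weeks after the compounds. The mix held no interferon. The model is 1 cell line, and the labels do not say whether the replicates came from separate cultures, so the p-values measure the spread between these libraries.

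Libraries held 14.4 to 19.5 M estimated counts. Values below are counts divided by DESeq2 size factors, called normalized counts, and library values are given in the order of the replicate numbers. Of the 41 genes, 39 averaged at least 10 normalized counts over the 16 libraries. ISG15, a ubiquitin-like protein that is joined to other proteins, ranged from 0 to 18.6, and IFIH1, a cytoplasmic sensor of long double-stranded RNA, from 2.44 to 13.7. Both were left out of the summaries over libraries but kept in every test. Summed normalized counts of fibroblast markers such as COL1A1 and PDGFRB lay between 432000 and 575000, and those of epithelial markers between 1.92 and 18.7. Of 11 leukocyte markers, the T cell genes CD3E and CD2, the B cell gene MS4A1 and the macrophage gene AIF1 were at 0 in every library, while the sum of the list, most of it CD14, ranged from 48.8 to 264.

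Many of these genes carry the response element close to their start. A RefSeq promoter window, from 250 bases before to 50 after the start in GRCh38.p14, was matched for 33 of the 41 genes. The core of the response element was searched on both strands as GAAANNGAAA. It was present in 21 of the 33 windows (63.6%), against 996 of 27305 promoters in all (3.65%). The gamma-activated site, searched as TTCNNNGAA, was in 9 of the 33 (27.3%) against 7.88% of all. The following 60-base stretches all lie before the annotated start. They were chosen because IFIT1 is a classical target, because IFI6, ISG20, IFITM3 and BST2 carry results given below, and because ISG15 holds the motif at a count near 0. Each is written 5′ to 3′ on the strand of the gene, with matches on either strand in capitals.
IFIT1, chr10:89392482-89392541, plus strand: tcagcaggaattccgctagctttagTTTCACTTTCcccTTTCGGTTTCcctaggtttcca
IFI6, chr1:27672273-27672332, minus strand: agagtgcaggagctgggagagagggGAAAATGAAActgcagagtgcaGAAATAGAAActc
ISG20, chr15:88638922-88638981, plus strand: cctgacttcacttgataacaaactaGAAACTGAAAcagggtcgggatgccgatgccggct
IFITM3, chr11:320878-320937, minus strand: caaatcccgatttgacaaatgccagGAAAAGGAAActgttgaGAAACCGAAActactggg
BST2, chr19:17405726-17405785, minus strand: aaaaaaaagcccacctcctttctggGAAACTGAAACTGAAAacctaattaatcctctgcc
ISG15, chr1:1013359-1013418, plus strand: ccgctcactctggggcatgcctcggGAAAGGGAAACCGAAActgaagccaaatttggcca
IFIT1, IFI6 and IFITM3 show a pair of separate matches in these windows, and in BST2 and ISG15 a pair of matches overlap. In ISG20 the match begins at base -69 from the start, and in IFITM3 the match nearer the start begins at -35. A match describes letters in a window and not a bound site.

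The largest differences in these genes were between libraries of the same group. For each library the level of the 39 genes was summarised as the median difference, on the log2(normalized count + 1) scale, from each gene's mean over the 16 libraries. In the cytokine mix group this level was 1.03, -0.35, -0.25 and -0.051. In unstimulated cells it was -0.33, -0.27, 0.12 and 0.59, after belinostat -0.28, -0.17, 0.14 and -0.19, and after GSK-J4 -0.0048, 0.55, -0.21 and -0.10. The 4 groups overlapped throughout, with means of 0.03 ± 0.42 (SD, n = 4) in unstimulated cells, 0.10 ± 0.64 (SD, n = 4) after the mix, -0.12 ± 0.18 (SD, n = 4) after belinostat and 0.06 ± 0.34 (SD, n = 4) after GSK-J4. The same median over all genes lay between -0.00071 and 0.0067.

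**Figure D1:**
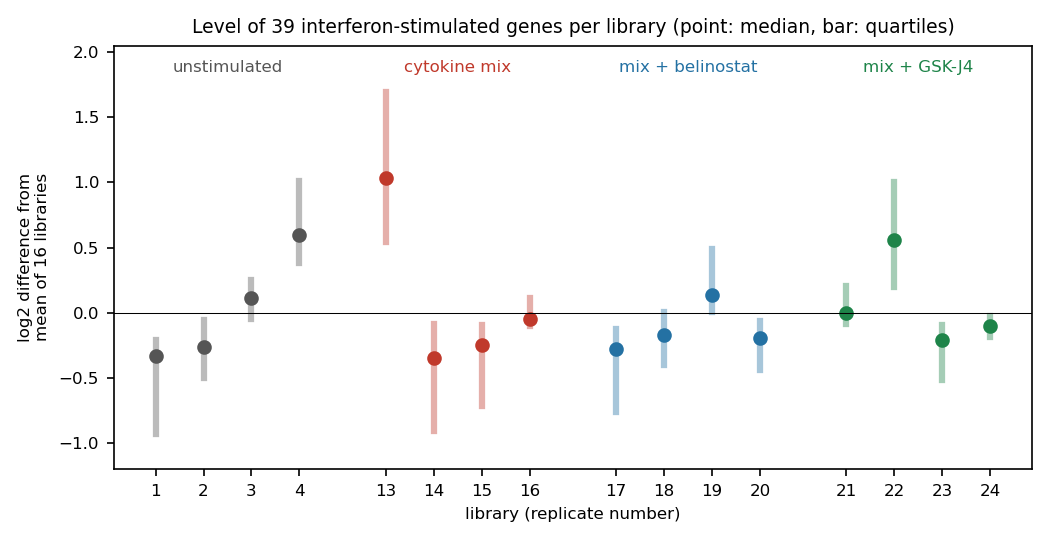
Level of the 39 interferon-stimulated genes in each of the 16 libraries. The horizontal axis gives the library by replicate number and group, and the vertical axis the log2 difference from the mean of 16 libraries, with points at the median over genes and bars over the quartiles. Cytokine mix replicate 13 stood at 1.03, unstimulated replicate 4 at 0.59 and GSK-J4 replicate 22 at 0.55, while the other 13 libraries lay between -0.35 and 0.14.

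In each group 1 library was highest for most of these genes, and these 4 libraries were picked after their values were seen. Cytokine mix replicate 13 had the highest value of its group for 39 of 39 genes, where it was highest for 23.8% of all genes. Unstimulated replicate 4 was highest for 36 of 39 (19.9% of all genes), GSK-J4 replicate 22 for 36 of 39 (26.9%) and belinostat replicate 19 for 31 of 39 (22.7%). Against the mean of the other 3 libraries of its group, replicate 13 held a median of 2.48 times the counts over the 39 genes, replicate 4 1.74 times, replicate 22 1.58 times and replicate 19 1.24 times. Their totals of 18.5, 18.1, 17.5 and 16.2 M lay inside the range of the other libraries.

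**Figure D2:**
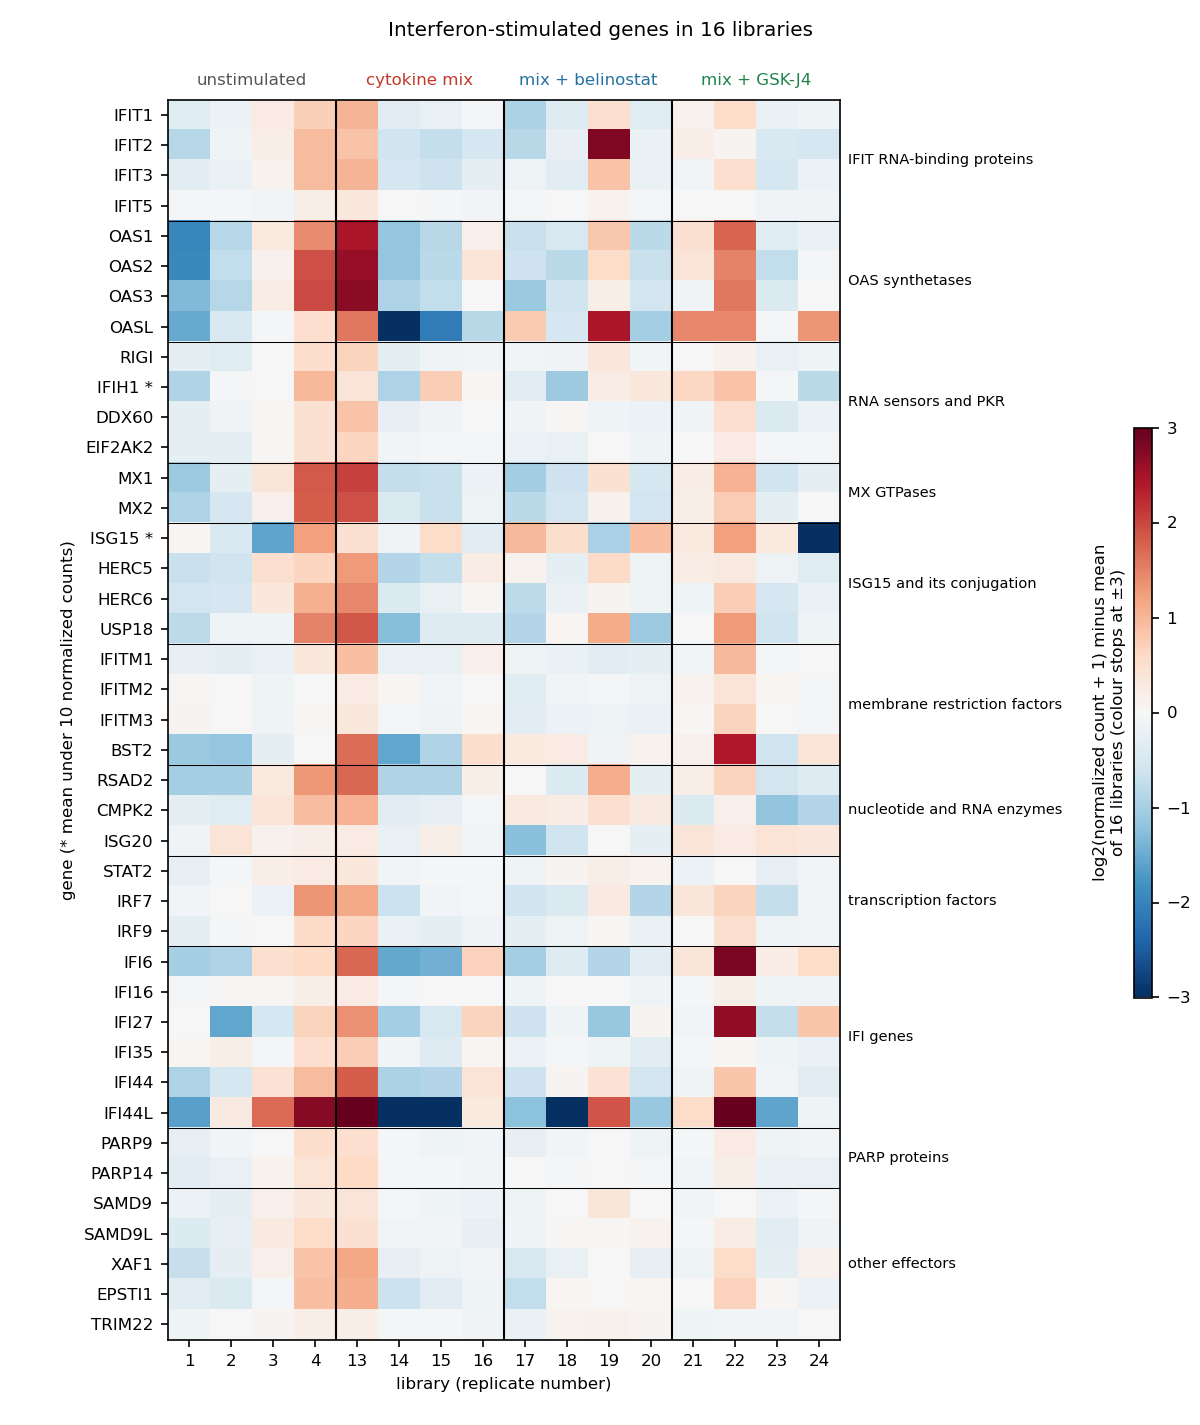
All 41 genes by library, grouped by the role of the protein. Columns are libraries by replicate number within the 4 groups, rows are genes, and colour gives the difference of log2(normalized count + 1) from the mean of 16 libraries. Cytokine mix replicate 13 is the highest of its group in 39 of the 39 genes with a mean of at least 10, and rows such as IFI16, IFIT5 and TRIM22 are nearly even.

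The OAS synthetases, which make oligoadenylates that activate RNase L when they meet double-stranded RNA, varied the most as a group. OAS3 stood at 2014, 163, 185 and 309 normalized counts in the cytokine mix libraries and at 123, 170.2, 358 and 1214 in unstimulated cells. After belinostat it stood at 143, 205, 349.5 and 206, and after GSK-J4 at 288, 929, 229 and 304. All 4 groups overlapped, and replicate 13 held 9.19 times the mean of the other cytokine mix libraries. OAS1 ranged from 31.9 to 699 and OAS2 from 27.99 to 677 over the 16 libraries, both lowest in unstimulated replicate 1 and highest in cytokine mix replicate 13. The genes OAS1, OAS3 and OAS2 lie side by side on chromosome 12, from 112905856 to 113011723 in GRCh38. OASL, a relative without the synthetase activity, lies apart on that chromosome and ranged from 0 to 44.2, highest in belinostat replicate 19.

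The MX GTPases, which trap incoming viral particles, followed the same libraries. MX2 stood at 197, 266, 418 and 1341 in unstimulated cells and at 1432, 277, 237 and 338 in the cytokine mix libraries. It stood at 216, 253, 415 and 251 after belinostat and at 427, 644, 306 and 371 after GSK-J4. Unstimulated replicate 4 and cytokine mix replicate 13 stood at 1341 and 1432, with the other 14 libraries at 644 or less. MX1 ranged from 298 to 2639 between unstimulated replicate 1 and cytokine mix replicate 13.

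The IFIT proteins bind foreign RNA and hinder its translation, and their genes form a cluster on chromosome 10 between 89283694 and 89421605 in GRCh38. IFIT2 stood at 121, 200.2, 252 and 423 in unstimulated cells, 395, 145, 133 and 153 after the mix, 122, 183, 1531 and 191 after belinostat and 252, 230.4, 159.5 and 152 after GSK-J4. Belinostat replicate 19 alone stood above 423, at 9.25 times the mean of the other belinostat libraries. IFIT1 ranged from 720 to 2827 and IFIT3 from 486 to 1500, both highest in cytokine mix replicate 13. IFIT5 varied little, from 660 to 885.

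Among the IFI genes, IFI6, an inhibitor of flavivirus replication in the endoplasmic reticulum, stood at 1041, 5735, 951 and 1194 after GSK-J4 and at 395, 618, 442 and 653 after belinostat. It stood at 2655, 279, 299 and 1296 after the mix and at 403, 434, 1124 and 1221 in unstimulated cells. Every GSK-J4 library was above every belinostat library, where 17.7% of all genes did not overlap between these groups. Replicate 22 alone held 5.4 times the mean of the other GSK-J4 libraries. IFI44L stood at 222, 0, 0 and 10.1 after the mix, where a pair of libraries had no count. It stood at 1.93, 10.01, 28.4 and 59.6 in unstimulated cells, 2.86, 0, 32.4 and 3.12 after belinostat and 12.2, 81.9, 2.03 and 7.34 after GSK-J4, so that every group held both low and high libraries. IFI44, its neighbour on chromosome 1, ranged from 46.0 to 319. IFI27 ranged from 3.00 to 72.7 and was highest in GSK-J4 replicate 22. IFI35 ranged from 179 to 390, and IFI16, a sensor of DNA, from 2807 to 3652.

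The membrane restriction factors behaved less evenly. The IFITM proteins, which hinder the fusion of enveloped viruses, are encoded side by side on chromosome 11 between 303655 and 329475 in GRCh38. IFITM3 stood at 5673, 6295, 6350 and 6173 after belinostat and at 7296, 11200, 7163 and 6759 after GSK-J4. It stood at 9037, 6799, 6580 and 7330 after the mix and at 7517, 6998, 6495 and 7295 in unstimulated cells. All 4 belinostat libraries were below all 12 others, and the share of all genes with this pattern was not counted. Of all genes, 17.7% did not overlap between belinostat and GSK-J4, 11.5% between belinostat and the mix and 12.4% between belinostat and unstimulated cells. IFITM2 stood at 1565, 1894, 1912 and 1799 after belinostat, 2140, 2616, 2067 and 1935 after GSK-J4, 2382, 2078, 1893 and 2030 after the mix and 2062, 2009, 1815 and 2001 in unstimulated cells. The belinostat values lay below all GSK-J4 values and overlapped those of the other groups. IFITM1 ranged from 1928 to 4761. BST2, or tetherin, which holds budding virus on the cell surface, stood at 24.1, 23.02, 43.5 and 52.7 in unstimulated cells and at 171, 17.2, 27.9 and 76.5 after the mix. It stood at 64.9, 63.5, 49.6 and 57.1 after belinostat and at 57.97, 283, 34.5 and 69.2 after GSK-J4, highest in replicate 22. The coding sequences of IFITM1, IFITM2 and IFITM3, like those of IFIT and OAS genes, are similar, so the estimated counts of such neighbours depend on how kallisto shared their reads.

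The nucleotide and RNA enzymes held the gene with the largest share of its variance between groups, though not the largest fold change. ISG20, an exonuclease that degrades RNA, stood at 21.96, 35.4, 53.9 and 44.6 after belinostat and at 70.2, 63.5, 71.1 and 68.1 after GSK-J4. It stood at 63.8, 45.99, 60.5 and 50.7 after the mix and at 50.2, 71.1, 58.6 and 61.5 in unstimulated cells. The belinostat and GSK-J4 libraries did not overlap, as was the case for 17.7% of all genes. CMPK2, a mitochondrial nucleotide kinase, stood at 127, 123, 148 and 127 after belinostat and at 79.3, 117, 45.7 and 56.6 after GSK-J4. It stood at 218, 82.4, 88.5 and 101 after the mix and at 86.9, 82.1, 138 and 202 in unstimulated cells. RSAD2, or viperin, which makes a chain-ending nucleotide, ranged from 32.8 to 226. The annotated ends of CMPK2 and RSAD2 overlap on opposite strands of chromosome 2, and whether the counting used strand is not given in the sources used here.

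Among the sensors, IFIH1 stood at 2.90, 6.01, 6.21 and 13.7 in unstimulated cells and 8.57, 2.88, 11.2 and 6.46 after the mix, and at 4.77, 2.44, 7.55 and 8.31 after belinostat and 10.2, 12.3, 6.10 and 3.14 after GSK-J4, with all groups overlapping. RIGI, which senses short viral RNA with a triphosphate end, ranged from 530 to 1078, the helicase DDX60 from 469 to 1136, and EIF2AK2, the kinase PKR that halts translation, from 1551 to 2976. Each was highest in cytokine mix replicate 13. HERC6, listed here with the ISG15 system, stood at 213, 220.2, 391 and 658 in unstimulated cells, 853, 233, 269 and 321 after the mix, 181, 275, 332 and 284 after belinostat and 288, 526, 222 and 272 after GSK-J4. HERC5, the ligase that attaches ISG15, ranged from 54.6 to 246. USP18, which removes ISG15 and dampens signalling at the interferon receptor, ranged from 13.4 to 127. All 3 were highest in replicate 13.

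IRF7, the factor that drives interferon alpha genes, stood at 119.7, 128, 112 and 317 in unstimulated cells and at 282, 80.5, 119 and 123 after the mix. It stood at 84.01, 94.02, 154 and 68.5 after belinostat and at 163, 202, 77.2 and 120.5 after GSK-J4. Unstimulated replicate 4 and cytokine mix replicate 13 were its highest libraries. IRF9 ranged from 641 to 1224 and STAT2 from 4800 to 7039, both highest in replicate 13. The ADP-ribosyltransferase PARP14 stood at 1852, 1957, 2453 and 3059 in unstimulated cells, 3461, 2236, 2209 and 2165 after the mix, 2265, 2215, 2308 and 2241 after belinostat and 2174, 2571, 2010 and 1973 after GSK-J4. PARP9 ranged from 1121 to 1912. XAF1, which opposes the apoptosis inhibitor XIAP, stood at 565, 752, 1024 and 1672 in unstimulated cells, 2047, 779, 824 and 871 after the mix, 654, 780.3, 915 and 772 after belinostat and 829, 1348, 746 and 1010 after GSK-J4. SAMD9 and SAMD9L, which restrict poxviruses, ranged from 652 to 1023 and from 722 to 1409. EPSTI1 ranged from 126 to 454, and the antiviral protein TRIM22 from 3612 to 4744.

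The high libraries did not share a single profile. IFIT2 in belinostat replicate 19 was the highest of all 16 libraries and OASL likewise, whereas IFI6, BST2 and IFI27 in that library held 0.796, 0.802 and 0.464 times the mean of the other belinostat libraries. The IFI27 ratio in replicate 19 rests on 4.32 counts against a mean of 9.29, and BST2 stood at 49.6 against 61.8. In GSK-J4 replicate 22 the order was different. Here IFI6, BST2 and IFI27 held 5.4, 5.24 and 6.03 times the mean of the other GSK-J4 libraries, while IFIT2 held 1.23 times. In cytokine mix replicate 13 IFI44L held 65.6 times the mean of the other libraries, OASL 15.5 times and OAS3 9.19 times, although the first 2 rest on means of 3.38 and 1.54 counts. In unstimulated replicate 4 the OAS3 and MX1 ratios of 5.6 and 4.19 were above those of IFI6 and BST2, at 1.87 and 1.74. The ratios of 1 library are a description with no test.

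**Figure D3:**
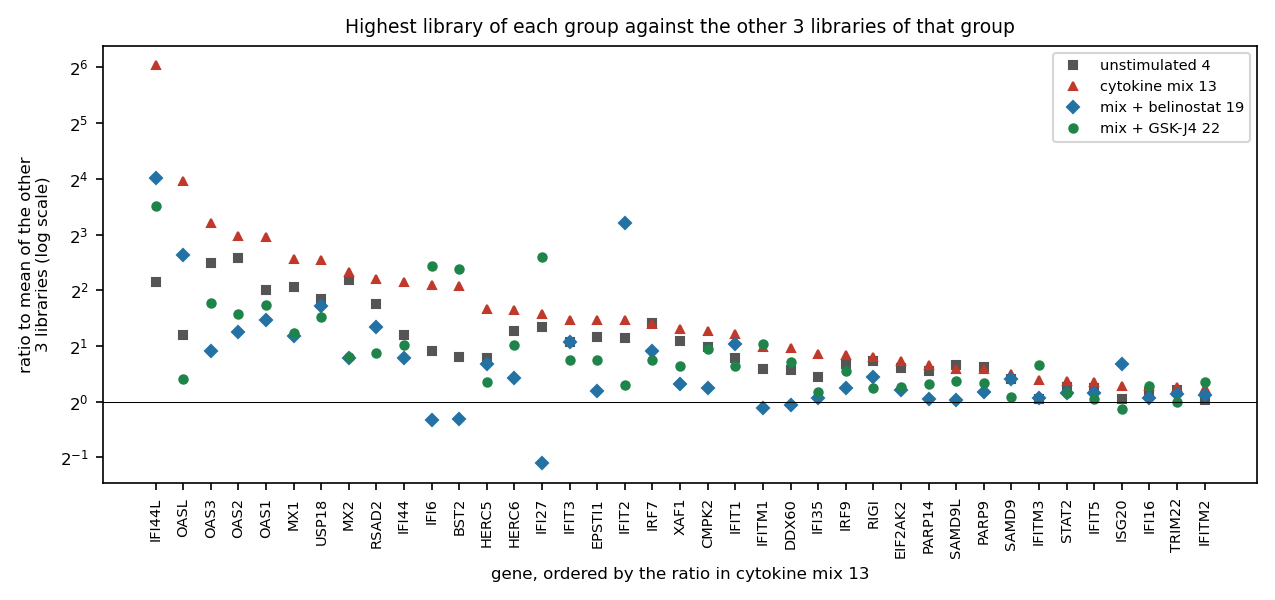
The highest library of each group against the mean of the other 3 libraries of that group, for 39 genes. The horizontal axis lists genes in the order of their ratio in cytokine mix replicate 13, the vertical axis is the ratio on a log scale, and each symbol is 1 library. GSK-J4 replicate 22 stands above the other symbols at IFI27 (6.03) and belinostat replicate 19 at IFIT2 (9.25), while IFI6, BST2 and IFI27 fall below 1 in replicate 19.

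Measured over the 39 genes, the groups accounted for a median of 9.42% of a gene's variance over the 16 libraries. It was 28.9% over 13886 genes with the same minimum mean. Such a share is not corrected for the number of groups, so it is above 0 even where groups do not differ. The SD within groups had a median of 0.53 on the log2 scale, against 0.13 over the 13886 genes. It ranged from 0.11 for IFI16 to 2.53 for IFI44L. After the group means were removed, 668 of 741 pairs of the 39 genes (90.1%) had a correlation above 0.5 over the 16 libraries, against 8.11% of pairs of all genes. These correlations share the same libraries and size factors and are given as a description. Without the highest library of each group the share was 50.3% of pairs over 12 libraries, against 13.1% of all pairs. Over those 12 libraries the groups accounted for a median of 22.4% of variance (33.7% over all genes). With fewer libraries the uncorrected share is larger even without a group difference, so 22.4% cannot be set against 9.42%. The median SD within groups was 0.29 (0.13 over all genes). ISG20 followed the others least, with a median correlation of 0.32, and 58.7% of its variance lay between groups. IFITM2 followed at 43.5%, IFITM3 at 37.2% and CMPK2 at 35.8%.

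The cytokine mix group was compared with the unstimulated group to ask what the pulses left behind after weeks of rest. None of the 41 genes was called at an adjusted p under 0.05 (DESeq2), where 1.79% of 15732 genes tested were called. edgeR also called 0, and 0 had an unadjusted p under 0.05 (DESeq2), where 1435 of 15732 genes tested did. The lowest adjusted p was 0.79 (DESeq2), for BST2, with a log2 fold change of 1.03 (SE 0.71). The median log2 fold change was 0.07 over the 41 genes, with 29 above 0 and 12 below, and -0.0042 over all genes. Without cytokine mix replicate 13 the median was -0.29, and without unstimulated replicate 4 it was 0.32. The SE of a log2 fold change had a median of 0.41 over these genes against 0.11 over all genes tested, so that for many of them a change of 1.5-fold was not detectable here. A lower level in bulk RNA cannot tell fewer expressing cells from less RNA per cell. The ISG20 difference was -0.13 (SE 0.21) and the MX1 difference 0.02 (SE 0.72).

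Belinostat was compared with the cytokine mix group, the test of a histone deacetylase inhibitor in cells with the same cytokine history. None of the 41 genes was called, where 5.99% of 14717 genes tested were called (DESeq2). edgeR also called 0. Of the 41, 33 had a log2 fold change below 0, and the median was -0.29 against 0.0033 over all genes. That median was 0.06 without cytokine mix replicate 13, and -0.04 without the highest library of each group. IFITM2, IFITM3 and ISG20 had an unadjusted p under 0.05, with log2 fold changes of -0.23 (SE 0.095), -0.28 (SE 0.13) and -0.51 (SE 0.23) and adjusted p of 0.17, 0.26 and 0.21 (DESeq2). These are 3 of 41, where 2285 of 14717 genes tested had an unadjusted p under 0.05 (DESeq2). IFITM3 was the 1 gene of 39 whose groups did not overlap (2.56%, against 11.5% of all genes). IFIT2 had the highest value, 1.29 (SE 0.72), with replicate 19 at 1531 counts and the other belinostat libraries at 191 or less. OASL was called without cytokine mix replicate 13, at 3.40 with an adjusted p of 0.02 (DESeq2), and at 1.21 with an adjusted p of 0.62 with all libraries. The counts of OASL in the other cytokine mix libraries were 0, 0.93 and 3.69.

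GSK-J4 was compared with the same cytokine mix libraries. None of 39 genes tested was called, where 1.82% of 13703 genes were called (DESeq2). IFIH1 and ISG15 were removed here by the filter on low means. edgeR called 0. CMPK2 alone had an unadjusted p under 0.05, with a log2 fold change of -0.72 (SE 0.34) and an adjusted p of 0.43 (DESeq2). Over all genes, 1350 of 13703 tested had an unadjusted p under 0.05 (DESeq2). The median over the 39 genes was -0.11, with 29 below 0 and 10 above, and it was 0.30 without cytokine mix replicate 13 and -0.30 without GSK-J4 replicate 22. IFI6 differed by 0.98 (SE 0.75) and BST2 by 0.60 (SE 0.71), neither past the threshold. OASL was called without cytokine mix replicate 13, at 3.49 with an adjusted p of 0.04 (DESeq2), against 1.30 and an adjusted p of 0.74 with all libraries.

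The compounds were also set against each other, at the different doses given above. Belinostat libraries were lower than GSK-J4 libraries in 4 of the 41 genes called at an adjusted p under 0.05, where 12.2% of 14717 genes were called (DESeq2). A count of 4 of 41 is below that share. The 4 genes were ISG20, IFITM3, IFITM2 and IFI6, and none was higher after belinostat. ISG20 was lower after belinostat by 0.81 on the log2 scale (SE 0.22, adjusted p 0.0039 in DESeq2). Its normalized counts were 38.99 ± 13.6 (SD, n = 4) after belinostat and 68.2 ± 3.40 (SD, n = 4) after GSK-J4. Against the mix its differences were not called, at -0.51 (SE 0.23) after belinostat and 0.30 (SE 0.21) after GSK-J4. Their adjusted p were 0.21 and 0.72 (DESeq2). In the same order, IFITM3 was lower by 0.40 (SE 0.13, adjusted p 0.022 in DESeq2), at 6123 ± 309 against 8105 ± 2080 (SD, n = 4). IFITM2 was lower by 0.29 (SE 0.095, adjusted p 0.024 in DESeq2), at 1792 ± 160 against 2190 ± 297 (SD, n = 4). IFI6 was lower by 2.08 (SE 0.75, adjusted p 0.048 in DESeq2), at 527 ± 127 against 2230 ± 2340 (SD, n = 4).

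The 4 calls did not stand on equal ground. ISG20 was called in 14 of 14 alternatives, with adjusted p from 0.00043 to 0.035 (DESeq2 or edgeR). IFITM2 and IFITM3 were called in 10 of 14 each, and both were lost without GSK-J4 replicate 22, at adjusted p of 0.17 and 0.16 (DESeq2). IFI6 was called in 4 of 14, and without replicate 22 its difference was -1.01 with an adjusted p of 0.48 (DESeq2). edgeR called ISG20 and IFITM2. CMPK2 was higher after belinostat by 0.81 (SE 0.34) with an adjusted p of 0.10 (DESeq2). It was called without GSK-J4 replicate 22, at 1.12 with an adjusted p of 0.020 (DESeq2). Without the highest library of each group it was called at 1.05, with an adjusted p of 0.00088 (DESeq2). Those libraries were picked as the highest in these genes, and CMPK2 was highest in each of them within its group. Leaving them out narrows its spread by construction, so that last p-value does not support a difference. IFI27 had a log2 fold change of -1.76 (SE 0.73, adjusted p 0.098 in DESeq2) and was called without GSK-J4 replicate 23. Of the 39 genes, 6 did not overlap between these groups (15.4%, against 17.7% of all genes), namely IFITM1, IFITM2, IFITM3, ISG20 and IFI6, lower after belinostat, and CMPK2, higher. The median log2 fold change was -0.25, and it was 0.03 without GSK-J4 replicate 22.

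**Figure D4:**
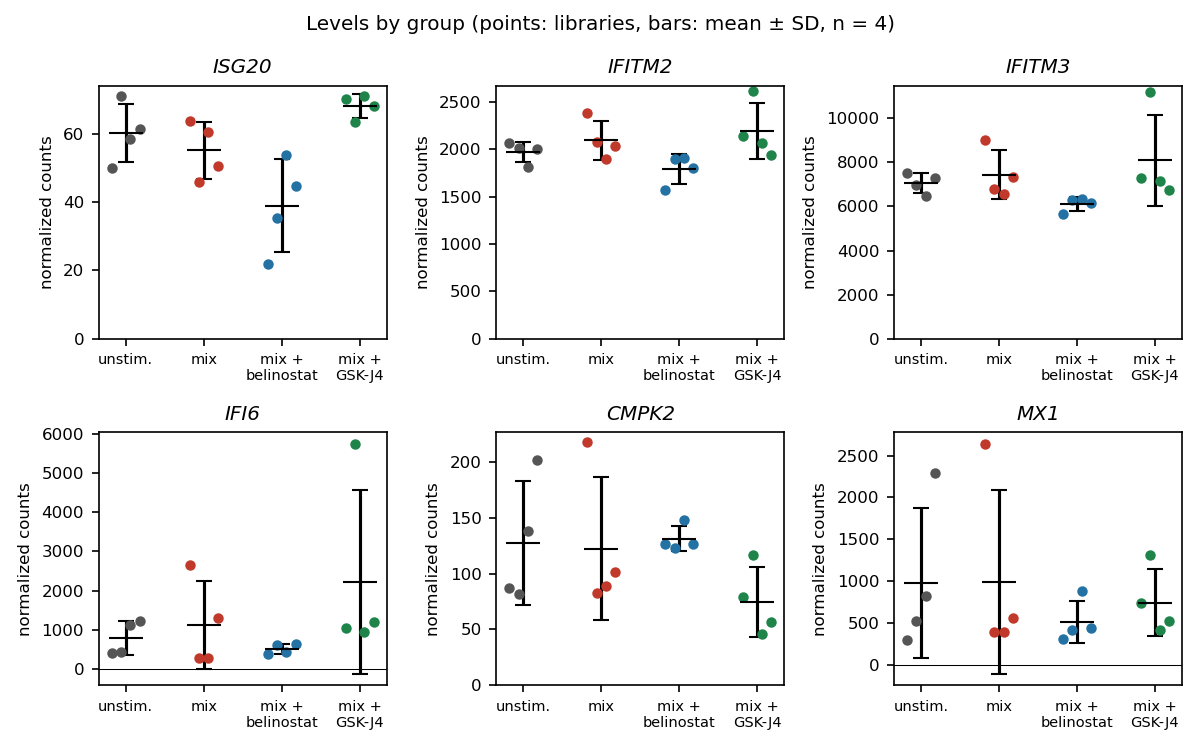
Normalized counts of ISG20, IFITM2, IFITM3, IFI6, CMPK2 and MX1 by group, with points for libraries and bars for mean ± SD (n = 4). The horizontal axis of each panel gives the 4 groups. ISG20 is low in belinostat libraries (38.99 ± 13.6) against GSK-J4 (68.2 ± 3.40), while IFI6 and MX1 show a wide spread set by single libraries.

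Both compound groups were compared with unstimulated cells, which differ from them in both the mix and the compound. After belinostat 1 of 41 genes was called, where 9.76% of 14717 were called (DESeq2). This was ISG20, which fell by 0.64 on the log2 scale (SE 0.22, adjusted p 0.047 in DESeq2), from 60.3 ± 8.62 to 38.99 ± 13.6 (SD, n = 4). The call was kept in 4 of 14 alternatives, with adjusted p from 0.0084 to 0.22, and edgeR called 0. IFITM3, with a log2 fold change of -0.21 (SE 0.13), was the 1 gene of 39 that did not overlap between these groups (2.56%, against 12.4% of all genes). After GSK-J4 0 of 41 genes were called, where 5.97% of 15732 were called (DESeq2), and edgeR called 0. Here 4 of 41 genes had an unadjusted p under 0.05 (DESeq2), where 2452 of 15732 genes tested did. BST2 differed by 1.63 (SE 0.71), IFI27 by 1.51 (SE 0.72) and IFI6 by 1.49 (SE 0.75), and CMPK2 by -0.77 (SE 0.34), with adjusted p from 0.20 to 0.31 (DESeq2).

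**Figure D5:**
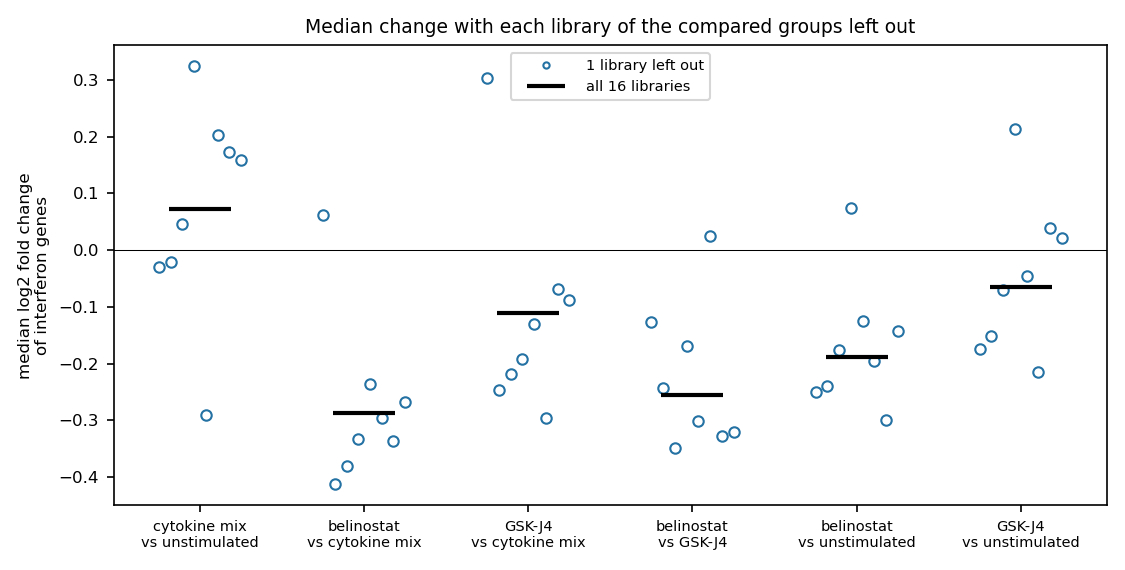
Median log2 fold change of the interferon-stimulated genes in 6 comparisons. The horizontal axis gives the comparison and the vertical axis the median over genes, with a bar for all 16 libraries and circles for fits with 1 library of the compared groups left out. In every comparison the circles lie on both sides of 0, as from -0.29 to 0.32 for the cytokine mix against unstimulated cells.

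The wider pathway was read from lists of other genes. Of 21 interferon ligand genes 18 were at 0 in every library, IFNB1 among them, and the normalized counts of the list summed to 2.03 to 10.5, most of them from IFNE. In unstimulated replicate 4, cytokine mix replicate 13, belinostat replicate 19 and GSK-J4 replicate 22 the sum was 3.91, 10.5, 7.55 and 4.10, with belinostat replicate 18, low in the interferon genes, at 9.77. The sums rest on few counts. Among receptor and signalling genes, the receptor gene IFNAR1 ranged from 2120 to 2546, and no gene of that list was called in any of the 6 comparisons (DESeq2).

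Further interferon-stimulated genes outside the 41 moved with them. After the group means were removed, 28 of 38 measured had a correlation above 0.5 over the 16 libraries with the median deviation of the 39 genes (73.7%, against 5.38% of all genes). TRIM14, a mitochondrial adaptor of RNA sensing, stood at 771, 295, 253 and 302 in the cytokine mix libraries, and PLSCR1, a phospholipid scramblase, at 1390, 815, 735 and 819.7. Among nucleic acid sensing genes it was 8 of 14, among them SAMHD1, which removes nucleotides, at 1016, 556, 595 and 638. Replicate 13 was the highest library in each of these 3 genes. The points share the libraries with the 39 genes.

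GBP4, a guanylate-binding protein that interferon gamma also induces, followed them less. It stood at 644, 670.4, 622 and 549 after belinostat, 312, 271, 244 and 234 after GSK-J4 and 468, 437, 526 and 438 after the mix. In unstimulated cells it stood at 295, 378, 550 and 511, where replicate 1 lay inside the GSK-J4 range. Against the mix GBP4 fell by 0.82 after GSK-J4 (SE 0.16, adjusted p 8.5e-05 in DESeq2). Its correlation with the level of the 39 genes was 0.43. Belinostat against GSK-J4 called 5 of 39 genes of the list, with GBP4, GBP2 and CASP1 higher and CXCL10 and TAP1 lower after belinostat, a share near the 12.2% of all genes tested. In the comparison of belinostat with the mix 0 of 39 were called, and in that of the mix with unstimulated cells 0 of 41.

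SOCS1, an inhibitor of JAK kinases that interferons and other cytokines induce, separated the compounds. It stood at 56.3, 73.3, 77.7 and 90.3 after belinostat, 197, 316, 286 and 192 after GSK-J4, 130.4, 119.8, 150 and 159 after the mix and 141, 131, 117 and 152 in unstimulated cells. Every belinostat library was below, and every GSK-J4 library above, all libraries of the mix. Of all genes, 11.5% did not overlap between belinostat and the mix, and 9.8% between GSK-J4 and the mix. Against the mix SOCS1 fell by 0.91 after belinostat (SE 0.19, adjusted p 0.00012 in DESeq2) and rose by 0.83 after GSK-J4 (SE 0.18, adjusted p 0.00067 in DESeq2). Both comparisons used the same cytokine mix libraries. SOCS1 and SOCS3 were the 2 of 6 genes of the negative regulator list called after belinostat, where 5.99% of all genes tested were called. SOCS3 fell by 0.26 (SE 0.077, adjusted p 0.019 in DESeq2). IKBKE, a kinase of the interferon-inducing pathway, fell by 0.40 after belinostat (SE 0.096, adjusted p 0.0014 in DESeq2), the 1 gene of 14 called in the sensing list, a share near the 5.99% of all genes tested. The correlation of SOCS1 with the level of the 39 genes was 0.19.

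The level of the interferon genes was set beside markers of other properties. Of 14 proliferation genes 1, CCNB1, had a correlation above 0.5 with it. Leukocyte marker sums were 94.7, 168, 228 and 87.0 in unstimulated replicate 4, cytokine mix replicate 13, belinostat replicate 19 and GSK-J4 replicate 22, each within the range of the other libraries. Of that list CD14 alone was called in any comparison, higher after belinostat than in unstimulated cells by 1.45 (SE 0.35, adjusted p 0.0011 in DESeq2), where ISG20 was lower. Between belinostat and GSK-J4, 4 of the 41 genes were called. Here the proliferation genes TOP2A, TYMS and RRM2 were called lower after belinostat (3 of 14 tested). So were the fibroblast genes COL1A1, COL1A2, COL3A1 and THY1 (4 of 9), where 12.2% of all genes were called. TYMS was lower by 0.47 (SE 0.11, adjusted p 0.00047 in DESeq2) and COL1A1 by 0.43 (SE 0.082, adjusted p 6.2e-06 in DESeq2). Against the mix, 0 of 14 proliferation genes were called after belinostat, where 5.99% of all genes tested were called. After GSK-J4, MKI67, TOP2A and TYMS were called higher (3 of 14), where 1.82% of all genes tested were called. In the same comparisons 2 of 9 fibroblast genes were called each time. These were COL1A1 and PDGFRA, lower than the mix after belinostat, and COL1A2 and COL3A1, higher after GSK-J4. The part of these genes in the differences was not tested.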

How the data were processed

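Bulk RNA-seq of 16 Ccd18-Co libraries in 4 groups of 4 was analysed. Per the study's methods, the authors checked reads with FastQC 0.11.9 and MultiQC 1.14 and quantified them with kallisto 0.48.0 at default settings. What they deposited are estimated counts for each gene symbol, without scaling to library size. The processing notes name hg38. The transcriptome release, and how transcripts became symbols, are not given in the sources used here. Columns of the unstimulated libraries say none where the titles say DMSO, and they were matched by number.

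Counts were rounded to whole numbers. DESeq2 1.42.0 (R 4.3.3) was fitted once to all 16 libraries with group as its factor, size factors by the median of ratios, its default independent filtering and no filter beforehand. Its Wald test was read in 6 comparisons, with p adjusted over all genes tested (Benjamini-Hochberg) and a gene called under 0.05. The cytokine mix libraries served 3 comparisons and each other group 3. Fold changes were not shrunken. The fit was tested on simulated data, in which DESeq2 made false calls above its nominal share and edgeR did not. Alternatives were edgeR 4.0.16 (quasi-likelihood test, TMM), TMM factors in DESeq2, a filter of 10 counts in 4 libraries, no independent filtering or Cook's cutoff, only the groups compared, and each library left out. A fit without the highest library of each group was added after seeing the data.

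The genes, their roles and the other lists were chosen with earlier results of these data known. The text gives values in every library for genes called in any of 4 comparisons (those of the mix with unstimulated cells and among the mix, belinostat and GSK-J4) and for the gene of each role with the largest fold change. Others are given by their range, and 1 gene of the signalling list is not reported here. TRIM14, PLSCR1, SAMHD1 and the libraries described singly were chosen after their values were seen. Gene coordinates are from GENCODE 44 and promoters from RefSeq (GRCh38.p14). No promoter was matched for IFIT2, OAS2, OASL, MX2, USP18, IFITM2, IRF7 and TRIM22. Totals were 14.4 to 19.5 M counts per library.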

Additional observations from a re-analysis of the deposited data

Results flagged for a closer look

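For each of the 39 genes with a mean of at least 10 normalized counts, the highest and lowest library of each group of 4 were compared with their nearest neighbour. The gap was divided by the range of the group. It passed Dixon's 95% critical value for 4 samples in 44 of 156 groups of values. That critical value assumes normally distributed values, and these were normalized counts without a log, so no chance rate is given. The share over all genes was not computed. The genes are not independent of each other. In parentheses is the gap as a share of the range.

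Cytokine mix replicate 13 stood apart upwards in 21 genes. These were IFIT1 (0.852), IFIT2 (0.924), IFIT3 (0.879), OAS1 (0.865), OAS2 (0.844), OAS3 (0.921), OASL (0.845), RIGI (0.851), EIF2AK2 (0.968), MX1 (0.925), MX2 (0.916), HERC6 (0.858), USP18 (0.888), CMPK2 (0.86), STAT2 (0.878), IRF9 (0.836), IFI16 (0.895), IFI44L (0.954), PARP9 (0.899), PARP14 (0.945) and XAF1 (0.927). Belinostat replicate 19 stood apart upwards in IFIT2 (0.951), IFIT3 (0.885), OAS1 (0.884), OAS2 (0.905), RIGI (0.916), CMPK2 (0.851) and IFI44L (0.904). GSK-J4 replicate 22 did so in OAS3 (0.892), EIF2AK2 (0.867), IFITM1 (0.951), IFITM3 (0.879), BST2 (0.86), IRF9 (0.844), IFI6 (0.949), IFI44 (0.844) and IFI44L (0.873). Unstimulated replicate 4 did so in IFIT5 (0.874), USP18 (0.85), IFITM1 (0.885) and IRF7 (0.921).

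Libraries stood apart downwards in OASL (0.89, GSK-J4 replicate 23), EPSTI1 (0.941, belinostat replicate 17) and TRIM22 (0.832, belinostat replicate 17). The normalized counts there were 7.11, 126 and 3612. IFI6 in GSK-J4 replicate 22 and IFITM3 in the same library enter the calls between belinostat and GSK-J4, and neither call was kept without that library.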

How the results depend on the processing

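Called genes were counted again under 14 alternatives per comparison. With 1 library left out at a time, the count ranged from 0 to 1 for belinostat against the cytokine mix, 0 to 1 for GSK-J4 against the mix, 1 to 5 for belinostat against GSK-J4 and 0 to 1 for belinostat against unstimulated cells. OASL was the gene added in the first pair, without cytokine mix replicate 13. With edgeR the counts were 2 for belinostat against GSK-J4 (main 4) and 0 for belinostat against unstimulated cells (main 1). The latter was also 0 without independent filtering or Cook's cutoff and 0 without the highest library of each group, at an adjusted p of 0.053 (DESeq2). ISG20 was lower after belinostat in all of these. The counts of the cytokine mix and of GSK-J4 against unstimulated cells were 0 under every alternative run. Of 84 such counts 69 stayed within 1.5 times the count reported.

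The median log2 fold change of the genes changed sign in every comparison when 1 library was left out. For belinostat against GSK-J4 it ranged from -0.35 to 0.026, the highest without GSK-J4 replicate 22. It ranged from -0.41 to 0.06 for belinostat and from -0.30 to 0.30 for GSK-J4 against the mix. TMM scaling and a minimum mean of 50 normalized counts left the level of each library within the spread of its group. The cause of these changes was not tested. Replicate numbers are not shared between groups. No paired analysis was possible because the groups share no replicate number. With 4 libraries a group and the SE given above, small changes of the widely varying genes could not be detected, and ISG15, IFIH1, OASL, IFI44L and IFI27 are limited by low counts.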
